A study of Mus musculus with 3 samples.

Results

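Shallow microglia-like barcodes are the droplets that carried microglia markers but fewer than 2000 unique molecular identifiers (UMIs, each a tag for 1 captured RNA molecule). They were selected on the deposited counts of 3 single-cell libraries. A barcode was taken when it had at least 200 detected genes, at most 20% of its UMIs from mitochondrially encoded genes, at least 2 of 7 markers (P2ry12, Tmem119, Sall1, Siglech, Gpr34, Olfml3 and P2ry13) with a UMI, and fewer than 3 of 5 cycling genes (Mki67, Top2a, Birc5, Pclaf and Hist1h1b). A barcode that also occurred in another library was dropped unless it held at least 5 times the UMIs of the other copy. The rule found 659 members among 6947 deposited barcodes, 140 in vehicle replicate 2, 193 in niacin replicate 1 and 326 in niacin replicate 2. The same rule at 2000 UMIs or more gave 1732 deep microglia-like barcodes for comparison, 341, 684 and 707 in the same order of libraries.

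The libraries came from the brains of female wild-type C57BL/6 mice, bought at 6 to 8 weeks of age, that had been implanted intracranially with BT0309, 1 mouse brain tumor-initiating cell line derived from Nf1+/-;Trp53+/- (NPcis) mice. Niacin was injected intraperitoneally at 100 mg/kg daily from day 7 after implantation, and vehicle mice received saline. Tissue from a 2 mm section around the injection site was taken at week 4, freed of myelin on a Percoll gradient and sorted for live cells, so every group carried the tumor and passed the same sort. Vehicle is 1 pool of mice and niacin is 2 pools (5 and 10 mice in all), so single mice cannot be told apart, and the labels also speak of 4 brains per pool.

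Microglia are the resident macrophages of the brain. They keep a surveying state through purinergic receptors such as P2ry12 and through TGF-beta signaling, and in tumors and injury they can lower these genes and raise lipid-handling, chemokine and antigen-presentation genes. A droplet holds both nuclear RNA, such as the retained long noncoding RNA Malat1, and cytoplasmic mRNA, such as that of ribosomal proteins, so the share of each kind describes what a barcode caught.

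Barcode sequences shared between libraries were frequent and are given before any result. Across the 3 libraries, 452 barcodes were present in all and 472 in exactly 2. Of 1055 barcodes that met the other criteria, 396 (37.5%) were dropped as copies, 51, 95 and 250 by library in the order above. Their median was 594 UMIs against a median of 9373 UMIs in the other copy, and 367 of the 396 other copies had 2000 UMIs or more. None of the 659 members kept a shared barcode, while 377 deep barcodes did, because the rule keeps the larger copy. The 20% limit on mitochondrial UMIs took away 69 further candidates and the gene minimum 5, and no candidate was lost to the cycling genes.

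Members made up a different share of each library. They were 11.1%, 13.7% and 20.5% of the barcodes that passed quality limits and the rule on copies, and 30.2%, 56.8% and 73.1% of such barcodes under 2000 UMIs. Among all microglia-like barcodes they were 29.1% in vehicle replicate 2 (exact binomial 95% interval 25.1% to 33.4%), 22.01% in niacin replicate 1 (19.3% to 24.9%) and 31.6% in niacin replicate 2 (28.7% to 34.5%). On this last measure the vehicle library lay between the niacin libraries, and on the others it was the lowest. Intervals of this kind cover counting error only. Median depth was 1269, 1357 and 1229.5 UMIs in members and 7847, 6075.5 and 6473 UMIs in deep barcodes, and members together held 828991 UMIs.

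The label was set beside genes that the rule did not use. To remove the effect of depth on detection, every barcode was thinned at random to 500 UMIs, the lowest total among members. At that depth Cx3cr1, the fractalkine receptor, had a UMI in 77.9% ± 4.84 of members (SD, n = 3 libraries), against 80.6% ± 11.7 of deep barcodes. In shallow T cell-like barcodes, used as the background, the share was 6.13% ± 1.96. Csf1r, the receptor for the survival factor of microglia, was found in 71.9% ± 4.28 of members, 70.7% ± 4.52 of deep barcodes and 1.85% ± 1.97 of shallow T cell-like barcodes. Members thus carried microglia RNA well above the level in T cell-like barcodes of like depth. Those barcodes were chosen to have few microglia markers, so part of this contrast was set by the rules. It is therefore not an independent check of the label.

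As a description of the markers that chose the members, P2ry12 had a UMI after thinning in 43.6%, 46.6% and 46.9% of members by library. Tmem119 did so in 32.1%, 53.9% and 45.7%, and Gpr34 in 31.4%, 47.7% and 40.8%. Unthinned, P2ry12 was found in 70.7%, 74.1% and 73.9% of members. Exactly 2 of the 7 markers were detected in 135 members and all 7 in 30, with 153 members at 4. The summed level of the 7 markers was 0.553%, 0.712% and 0.720% of UMIs in members and 0.592%, 0.958% and 0.932% in deep barcodes, and Mki67 was the single cycling gene with enough counts to be fitted.

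The limit of 2000 UMIs did not fall on a step in these values. Among the 83 barcodes from 1800 UMIs up to the limit and the 47 from the limit to 2199 UMIs, ribosomal protein genes took 2.62% ± 0.391 and 2.71% ± 0.754 of UMIs (SD, n = 3 libraries). Malat1 took 11.5% ± 3.52 just inside and 10.8% ± 2.13 just outside. Activated microglia genes stood at 0.338% ± 0.104 inside and 0.707% ± 0.523 outside, with spreads that overlap.

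To ask which genes differed between shallow and deep barcodes, UMIs were summed per library and depth class and the 6 sums were compared within libraries by edgeR's quasi-likelihood test. Of 10200 genes tested outside the rule and the mitochondrial genome, 978 (9.59%) rose and 1575 (15.4%) fell at an adjusted p under 0.05. Of these, 901 and 1513 moved the same way in all 3 libraries. These shares are the background for every list below, beside a median log2 fold change of -0.06 over all genes tested. Because the rule reads the total UMI count, a gene's share is not fully independent of it. The fit has 2 residual degrees of freedom. On simulated counts it recovered 43% of genes changed 2-fold and 77% of those changed 4-fold.

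Malat1, Xist and Kcnq1ot1, 3 of 8 nuclear long noncoding RNAs tested, rose and none fell. Malat1 stood at 63727, 134002 and 121130 CPM (UMIs scaled to the total of each sum) in members and at 31757, 56728 and 47932 CPM in deep barcodes, in the order vehicle replicate 2, niacin replicate 1 and niacin replicate 2. Its log2 fold change was 1.18 ± 0.14 (SE, adjusted p = 1.03e-12, edgeR), and it was higher in 3 of 3 libraries. Xist, the RNA that coats the inactive X chromosome, had 4752, 4845 and 5047 CPM in members and 2044, 2217 and 1980 CPM in deep barcodes. Xist was higher in each library, and its log2 fold change was 1.22 ± 0.15 (adjusted p = 1.15e-12, edgeR). Kcnq1ot1, the imprinted antisense RNA of the Kcnq1 locus, rose by a log2 fold change of 1.17. Neat1, the paraspeckle scaffold RNA, had a log2 fold change of -0.09 and did not pass.

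**Figure D1:**
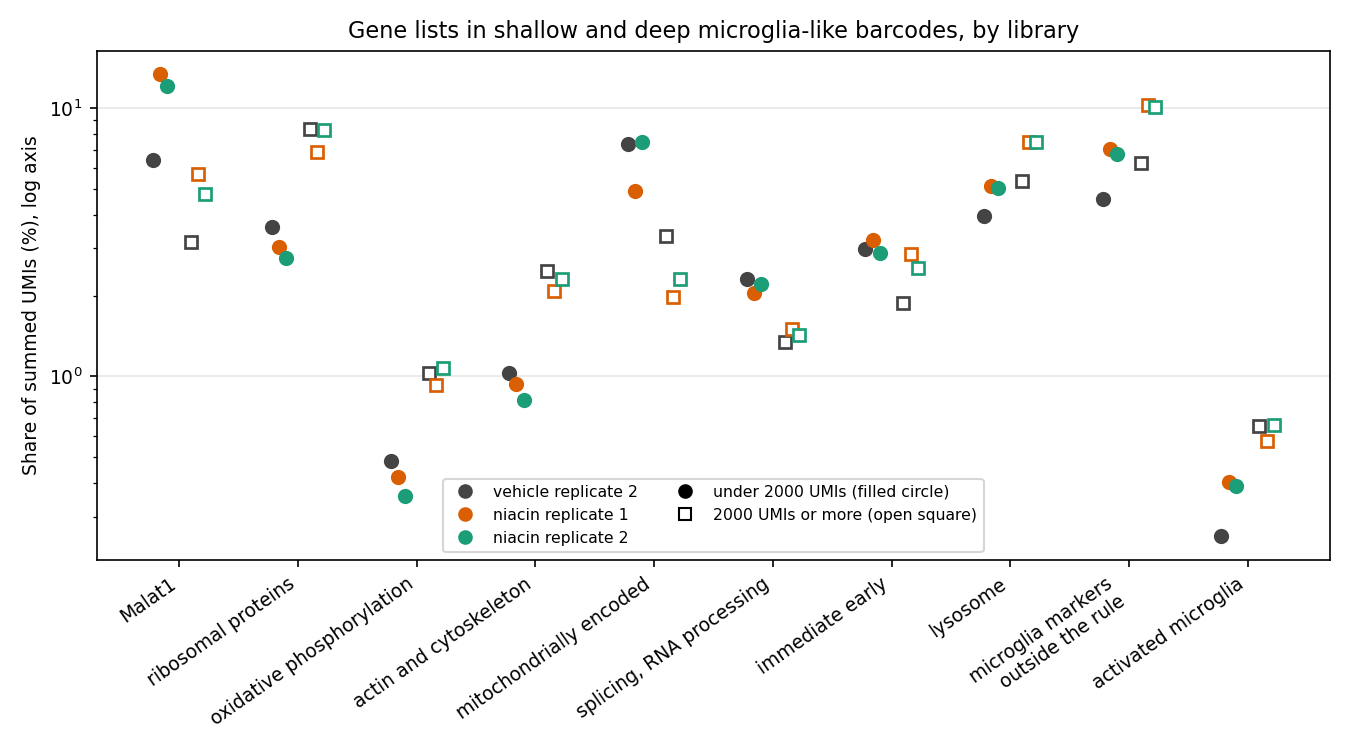
Share of summed UMIs (percent, log axis) taken by Malat1 and by 9 gene lists in each library, filled circles for barcodes under 2000 UMIs and open squares for those of 2000 or more. Malat1, mitochondrially encoded and splicing genes were higher in members of all 3 libraries, whereas ribosomal protein, oxidative phosphorylation and actin genes were lower.

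Genes for splicing and RNA processing rose as well, 19 of 25, with none lower and a median log2 fold change of 0.58. The list took 2.31%, 2.04% and 2.21% of UMIs in members and 1.34%, 1.51% and 1.43% in deep barcodes. Son, a nuclear speckle protein, rose by a log2 fold change of 1.01, Snrnp70, a protein of the U1 particle, by 0.99 and Ogt, the O-GlcNAc transferase, by 0.98. Clk1 and Clk4, kinases of splicing factors, rose by 0.78 and 0.82.

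Immediate early genes, the transcription factors that are switched on within minutes of a stimulus or of tissue handling, rose in 10 of 21 cases and fell in 1. As a summed share, the list had a log2 ratio of members to deep barcodes of 0.67 in the vehicle library. The ratio was 0.17 and 0.19 in niacin replicates 1 and 2. Egr1 had 5723, 3187 and 4072 CPM in members against 2786, 2660 and 2497 CPM in deep barcodes (log2 fold change 0.66 ± 0.15, adjusted p = 1.56e-04, edgeR). Fosb rose by 0.90, Ier5 by 0.85 and Jun by 0.54 on the log2 scale. Fos, the partner of Jun, was the member that fell, by 0.47 on the log2 scale. Members under 1000 UMIs gave few calls. Of this list 0 of 21 genes passed in either direction (edgeR), beside 18 of 9846 genes higher in all, with a median log2 fold change of -0.29 beside -0.39 over all genes. The list took 2.44% ± 0.258 of UMIs in barcodes under 1000 UMIs (SD, n = 3 libraries). It took 2.85% ± 0.294 from 1000 to under 1500 UMIs and 3.37% ± 0.248 from 1500 to under 2000. In deep barcodes it took 3.02% ± 0.139 from 2000 to under 4000 and 2.84% ± 0.298 from 4000 to under 8000 UMIs. At 8000 UMIs or more it took 1.97% ± 0.408. Deep barcodes under 8000 UMIs thus lay within the range of members, and only the deepest lay below it.

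Genes of the cytoplasm and of protein synthesis fell. Of 83 cytoplasmic ribosomal protein genes 82 fell and none rose, with a median log2 fold change of -1.39. Together they took 3.59%, 3.04% and 2.75% of UMIs in members and 8.34%, 6.86% and 8.27% in deep barcodes, lower in each library. Rps29, a small-subunit protein, had 1236, 1250 and 1090 CPM in members and 3545, 3120 and 3678 CPM in deep barcodes (log2 fold change -1.54 ± 0.15, adjusted p = 3.80e-17, edgeR). Translation factors fell in 11 of 15 cases. Eef1a1, the elongation factor that delivers tRNA, fell by 0.95 and Tpt1 by 1.26 on the log2 scale.

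Energy genes followed the same direction. Of 83 nuclear genes of oxidative phosphorylation 69 fell and none rose (median log2 fold change -1.36), and 10 of 15 glycolysis genes fell with 1 higher. Gapdh, the glyceraldehyde phosphate dehydrogenase, stood at 141, 167 and 145 CPM in members and 710, 530 and 601 CPM in deep barcodes. Hk2, a hexokinase and the first enzyme of glycolysis, was the one that rose, by a log2 fold change of 0.88. Mitochondrially encoded RNA, which the rule limits, went the other way at 7.33%, 4.91% and 7.48% of UMIs in members and 3.34%, 1.97% and 2.30% in deep barcodes.

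Actin and cytoskeleton genes fell in 17 of 18 cases. Tmsb4x, the actin monomer-binding thymosin, had 3234, 3635 and 2981 CPM in members against 9185, 9694 and 11123 CPM in deep barcodes (log2 fold change -1.62 ± 0.15, adjusted p = 4.21e-19, edgeR). Actb fell by 1.34 and Cfl1, the actin-severing cofilin, by 1.23 on the log2 scale.

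**Figure D2:**
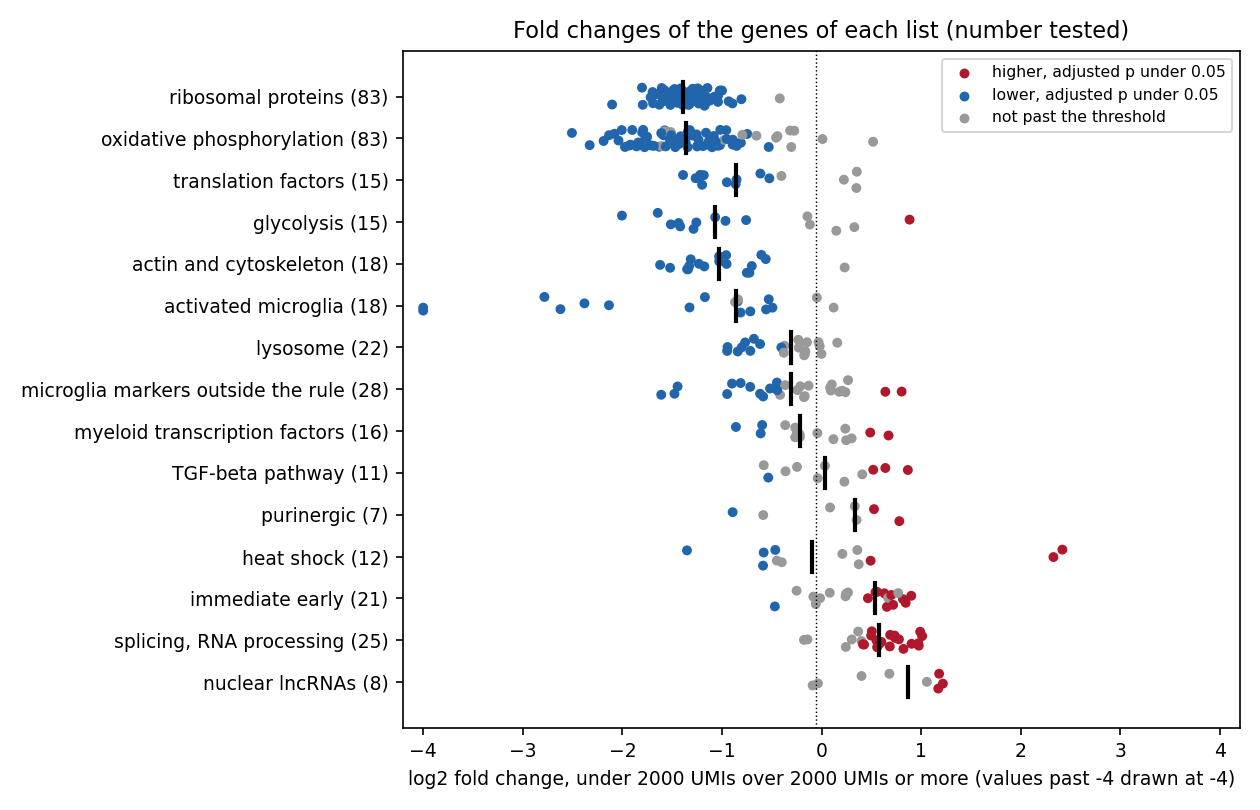
log2 fold change of each tested gene between barcodes under 2000 UMIs and those of 2000 or more, by list, with red and blue for genes past an adjusted p of 0.05, a bar at the list's median and a dotted line at the median of all genes tested. Ribosomal protein genes lie to the left around -1.39 and splicing genes to the right around 0.58, and 2 genes of the activated microglia list are drawn at the axis limit.

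Microglia identity genes were mixed. Of 28 markers outside the rule 12 fell, 2 rose and 14 did not pass, with a median log2 fold change of -0.30. Among those that fell were Tyrobp, the signaling adaptor of Trem2, at -1.61, Fcer1g, the Fc receptor gamma chain, at -1.48 and Aif1, which encodes the Iba1 protein, at -1.45. Cst3, the secreted protease inhibitor cystatin C, had 8477, 18330 and 19741 CPM in members and 16530, 35466 and 36545 CPM in deep barcodes. C1qa and C1qb, chains of complement C1q, fell by 0.45 and 0.72 on the log2 scale. Cx3cr1 and Csf1r had log2 fold changes of -0.18 and 0.27 and did not pass. Hpgds, a prostaglandin D synthase, and Tgfbr1 rose by 0.80 and 0.64.

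Lysosome genes fell in 9 of 22 cases and rose in none. Ctss, a cathepsin, fell by 0.62 on the log2 scale. Ctsd, another cathepsin, had 5277, 6691 and 5873 CPM in members and 4779, 6842 and 6560 CPM in deep barcodes, and did not pass (log2 fold change -0.03). Of 16 myeloid transcription factors 2 rose and 3 fell. Mef2a and Mef2c rose by 0.67 and 0.49, while Spi1, which encodes PU.1, fell by 0.86 on the log2 scale. With members under 1000 UMIs alone, Mef2a and Mef2c had log2 fold changes of -0.013 and -0.29, where the median over all genes was -0.39.

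Of 11 genes of the TGF-beta pathway 3 rose (Smad7, Tgfbr1 and Skil), 1 fell (Tgfb1) and 7 did not pass, with a median log2 fold change of 0.03. Smad7, the inhibitory Smad, had 508, 821 and 780 CPM in members against 302, 490 and 365 CPM in deep barcodes (log2 fold change 0.87 ± 0.15, adjusted p = 1.53e-06, edgeR). Skil, a repressor of Smad signaling, rose by 0.52, and Tgfb1, the ligand, fell by 0.53 on the log2 scale. Of 7 purinergic genes outside the rule, the ion channel P2rx7 and the ectonucleotidase Entpd1 rose by 0.78 and 0.53, and the adenosine receptor Adora3 fell by 0.89 on the log2 scale.

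Activated microglia genes were lower in members. Of 18 tested 14 fell and none rose, with a median log2 fold change of -0.85. Apoe, a lipid carrier, had 547, 1119 and 1248 CPM in members and 2184, 1876 and 2318 CPM in deep barcodes (log2 fold change -1.17 ± 0.16, adjusted p = 3.20e-10, edgeR), and 10 barcodes held 60.1% of its UMIs in members. The cytokine and chemokine genes Il1b and Ccl4 fell by 2.38 and 0.81 on the log2 scale. Cxcl13 and Ch25h had 0 UMIs in members and entered the test through the deep barcodes alone. In the deep class 10 barcodes held 99.6% of the UMIs of Cxcl13. Without barcodes with at least 2 monocyte or macrophage markers over all UMIs, 9 of 17 genes fell, beside 1331 of 9404 in all. This filter depended on depth, as the next paragraph shows.

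Interferon-response and MHC class II genes were lower too, together with markers of monocytes. Of 19 interferon-response genes 13 fell, and of 9 MHC class II genes 6 fell. Cd74, the invariant chain, had 1118, 246 and 185 CPM in members and 3666, 443 and 676 CPM in deep barcodes. In vehicle replicate 2, 36 of 341 deep barcodes (10.6%) had at least 2 of 7 monocyte markers at 500 UMIs, against 4 of 140 members. In the niacin libraries 1 of 684 and 3 of 707 deep barcodes did so and no member. The log2 ratio of the summed interferon-response share in members to that in deep barcodes was -1.50 in the vehicle library and -1.18 and -1.10 in the niacin libraries. The summed level of the monocyte markers ran from 0.007% to 0.047% of UMIs in members and from 0.018% to 0.226% in deep barcodes. Barcodes with at least 2 monocyte or macrophage markers over all their UMIs were then removed, which left 645 members and 1594 deep barcodes. Without them 3 of 19 interferon-response genes and 5 of 9 MHC class II genes fell, beside the same 1331 of 9404. At least 2 monocyte markers were found in 109 deep barcodes and 12 members over all UMIs, and in 40 and 4 at 500 UMIs. The filter thus depended on depth. Without vehicle replicate 2, 4 of 18 interferon-response genes fell, beside 1202 of 10299 genes in all. Among MHC class I genes B2m fell by 1.47 on the log2 scale and H2-K1 did not pass.

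The study turns on Prkcd, the gene of protein kinase C delta. It had 604, 329 and 343 CPM in members and 462, 242 and 218 CPM in deep barcodes. Members were higher in each library (log2 fold change 0.48 ± 0.16, adjusted p = 0.0151, edgeR), although vehicle deep barcodes exceeded niacin members. After thinning to 500 UMIs it had a UMI in 26.4%, 16.1% and 14.7% of members, in 20.2%, 12.7% and 9.62% of deep barcodes and in 1.64% ± 2.84 of shallow T cell-like barcodes. Of the 8 other genes of the NADPH oxidase list 5 fell. Cybb, the catalytic gp91phox subunit, had 107, 31.7 and 17.5 CPM in members and 388, 56.1 and 87.5 CPM in deep barcodes, and Itgal, an integrin of leukocytes, fell by 1.01 on the log2 scale. The sign of both turned without the barcodes that carried monocyte or macrophage markers, at log2 fold changes of 0.24 for Cybb and 0.27 for Itgal. Those markers were read over all UMIs, and 645 of 659 members and 1594 of 1732 deep barcodes were left. Depth thus affected the choice, and no conclusion is drawn from that turn alone. Both genes were also higher in members with the microglia markers read after thinning, a setting chosen after seeing the data. The closing section gives the values. The direction of Cybb and Itgal therefore rests on the choice of barcodes.

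Heat shock genes had no common direction, with 3 of 12 higher and 4 lower. The inducible Hspa1a had 282 CPM in members and 14.7 CPM in deep barcodes of vehicle replicate 2. In niacin replicate 1 it had 3.97 and 8.47 CPM and in niacin replicate 2 it had 10.0 and 9.20 CPM, so its log2 fold change of 2.42 came from 1 library. Hspa5, an endoplasmic reticulum chaperone, rose by 0.49 and Hspa8, a constitutive one, fell by 0.59 on the log2 scale. Of 14 stress and apoptosis genes 2 fell and none rose, a share near that of 15.4% over all genes. The 2 were Bax and Bak1, members of the Bcl-2 family, at log2 fold changes of -1.40 and -1.15.

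The 12 largest increases among genes with a mean of at least 50 CPM and the same direction in all libraries were mostly noncoding or little-studied genes. On mm10 (coordinates from GENCODE vM21 on GRCm38), Gm43221 is an antisense gene at chr3:109000024-109002094 on the plus strand, wholly within Fam102b on the other strand. It had 56.4, 306 and 168 CPM in members and 8.41, 35.8 and 19.7 CPM in deep barcodes (log2 fold change 3.06 ± 0.22, adjusted p = 1.46e-27, edgeR). Phykpl, the gene of a phospholyase, at chr11:51584757-51604489, overlaps Hnrnpab on the opposite strand over 22.2% of its span and rose by a log2 fold change of 2.50. Tsix, the antisense partner of Xist at chrX:103431517-103484957, overlaps Xist over 42.8% of its span and Gm26992, on the same strand, over 93.9%. It had 282, 956 and 548 CPM in members and 116, 218 and 165 CPM in deep barcodes. Gm26917, Gm32036, Ttpal, Gm26778, BC049352, B430010I23Rik, Gm31243, Gm26699 and Fam193b rose by log2 fold changes of 2.05, 2.11, 2.04, 1.97, 1.92, 1.91, 1.81, 1.69 and 1.67. The 3′ kit keeps the strand, but the counting setting for strand is not given in the sources used here, so the 9 of 12 that overlap a gene on the opposite strand may share its reads.

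The kind of gene went with the direction over the whole table. Antisense RNAs rose in 58 of 187 cases (31.0%) and lincRNAs in 54 of 205 (26.3%), against 863 of 9788 protein-coding genes (8.82%). Of protein-coding genes, those that rose had a median gene span of 50769 bases and 17 exon blocks, those that fell 10961 bases and 6, and those not called 26128.5 bases and 10. In 5 equal bins of span, 32.7% of the shortest genes fell and 3.42% rose, and of the longest 4.34% fell and 18.1% rose. Across the 9788 genes Spearman's rho between log2 fold change and span was 0.34, and with exonic length 0.52. Genes are not independent replicates, and these values are a description.

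The 12 largest decreases held both cell-wide genes and markers of other cells. Psma6, a proteasome subunit, had 16.9, 3.97 and 25.01 CPM in members and 102, 90.3 and 88.3 CPM in deep barcodes (log2 fold change -2.46 ± 0.34, adjusted p = 4.50e-10, edgeR). Cox7b, a subunit of cytochrome oxidase, fell by 2.19, Tmem256 by 2.33, Msrb1, a methionine sulfoxide reductase, by 2.48, Ifi27l2a by 2.37 and Ifitm3, an antiviral membrane protein, by 2.18 on the log2 scale. The others were Camp, the cathelicidin of neutrophil granules, at -3.35, Plac8 at -2.57, Ly6c2 at -2.32, Hbb-bt, a beta globin, at -2.29, S100a11 at -2.18 and Chil3 at -2.18. In deep barcodes 10 barcodes held 97.6% of the UMIs of Camp, 91.6% of Hbb-bt and 84.4% of Chil3. The sign of these last 6 genes turned to higher in members in at least 1 other choice of barcodes, as given in the closing section.

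Markers of other cell types were counted in each member at 500 UMIs. At least 2 erythroid markers were present in 145 of 659 members and in 66 of 1732 deep barcodes (3.81%). By library this was 0.714%, 40.4% and 20.2% of members and 0.293%, 6.43% and 2.97% of deep barcodes. The summed erythroid level was nonetheless lower in members, at 0.0085%, 0.308% and 0.191% of UMIs against 0.032%, 0.686% and 1.08%. Neutrophil markers were present in 62 members (9.41%) and 47 deep barcodes (2.71%). Ttr, a choroid plexus transcript, had a UMI in 16.7% ± 10.2 of members, 10.1% ± 6.47 of deep barcodes and 21.0% ± 14.4 of shallow T cell-like barcodes. In the fit across all genes 5 of 5 erythroid markers, 5 of 7 monocyte markers, 4 of 7 neutrophil markers, 3 of 5 choroid plexus markers, and 2 of 4 markers of monocyte-derived macrophages fell, and 1 neutrophil marker rose. The neutrophil and choroid plexus lists each held 1 gene at 0 in members, which entered the test through the deep barcodes alone, and such a gene was the single call among 2 border-associated macrophage markers. With markers read after thinning, 4 of 4 erythroid, 4 of 5 neutrophil and 1 of 4 monocyte markers rose and none fell. Over all genes in that setting 574 of 9016 rose and 905 fell. The directions of these markers thus rest on the choice of barcodes. No member had 2 markers of astrocytes, neurons, pericytes or endothelial cells, and a count of 0 permits up to 2.14%, 1.55% and 0.920% by library. The part of these markers in other fold changes was measured only by leaving out the barcodes that carried them.

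The Malat1 share of UMIs split the members into a large set with a high share and a small set near 0. With a division at 2.0%, chosen after its values were seen and used only as a description, 62 of 659 members (9.41%) lay below, and so did 158 of 1732 deep barcodes (9.12%). The members were 23 of 140 in vehicle replicate 2, 27 of 193 in niacin replicate 1 and 12 of 326 in niacin replicate 2. The deep barcodes were 73 of 341, 46 of 684 and 39 of 707 in the same order, so the shares differed by library. Few members lay near the division: between 1.0% and 4.0% there were 22, 1 and 3 members, so the gap was wide in the niacin libraries and not in the vehicle library. In the deep class 193, 112 and 197 barcodes lay there. In 26 members no Malat1 UMI was found at all. A division at 1% gave 55 members and one at 4% gave 81.

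**Figure D3:**
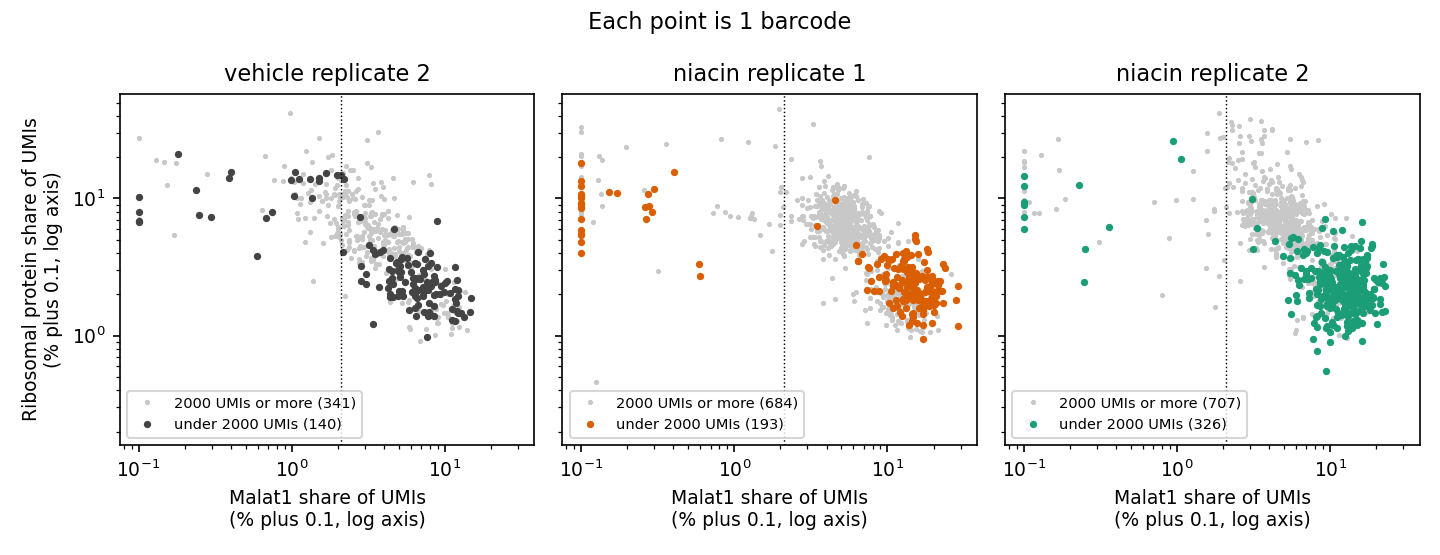
Malat1 share against ribosomal protein share of UMIs (both percent plus 0.1, log axes), 1 point per barcode, colored for members and grey for barcodes of 2000 UMIs or more, with a dotted line at a Malat1 share of 2.0%. Most members sit at high Malat1 and a ribosomal share near 2.25%, and 62 sit at low Malat1 with a median ribosomal share of 9.70%.

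The 62 members with little Malat1 were compared with the rest in 8 gene lists, and the values of 6 follow. Ribosomal protein genes stood at 109730 ± 18962 CPM in them (SD, n = 3 libraries) against 24146 ± 786 CPM. Actin and cytoskeleton genes took 2.85% ± 0.0133 of UMIs against 0.739% ± 0.0210, and microglia markers outside the rule 11.3% ± 2.79 against 5.66% ± 1.36. Splicing genes took 0.743% ± 0.232 against 2.32% ± 0.160 and immediate early genes 1.26% ± 0.554 against 3.19% ± 0.217. Xist stood at 436 ± 391 CPM in them and at 5323 ± 100 CPM in the others, and Tsix had 0 UMIs in them in every library. Cst3 was at 44964 ± 20713 CPM against 13056 ± 5901 CPM. Numbered gene models took 3.26% ± 1.26 against 2.79% ± 0.810, with spreads that overlap. The median depth of the 62 members was 848.5 UMIs against 1296 over all libraries, but 1244.5 against 1225.5 in niacin replicate 2. Their median mitochondrial share was 3.64% against 6.04%, and it was lower in each library. They were 39 of the 209 members under 1000 UMIs (18.7%), 11 of the 229 from 1000 to under 1500 UMIs and 12 of the 221 from 1500 UMIs up (5.43%).

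Over the whole range of depth the shares did not move in one direction. Malat1 took 7.84% ± 3.35 of UMIs under 1000 UMIs (SD, n = 3 libraries), 11.6% ± 3.52 from 1500 to under 2000, 4.63% ± 1.01 from 4000 to under 8000 and 3.48% ± 0.797 at 8000 or more. Ribosomal protein genes went from 4.65% ± 1.87 to 2.68% ± 0.199, 6.94% ± 0.865 and 9.17% ± 0.667 over the same bins. Within each library Malat1 was highest from 1500 to under 2000 UMIs and ribosomal protein genes were lowest from 1000 to under 2000 UMIs. The sum under 1000 UMIs rests on 209 barcodes, 49 of them in vehicle replicate 2. Compared with deep barcodes these 209 had 18 genes higher and 284 lower.

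**Figure D4:**
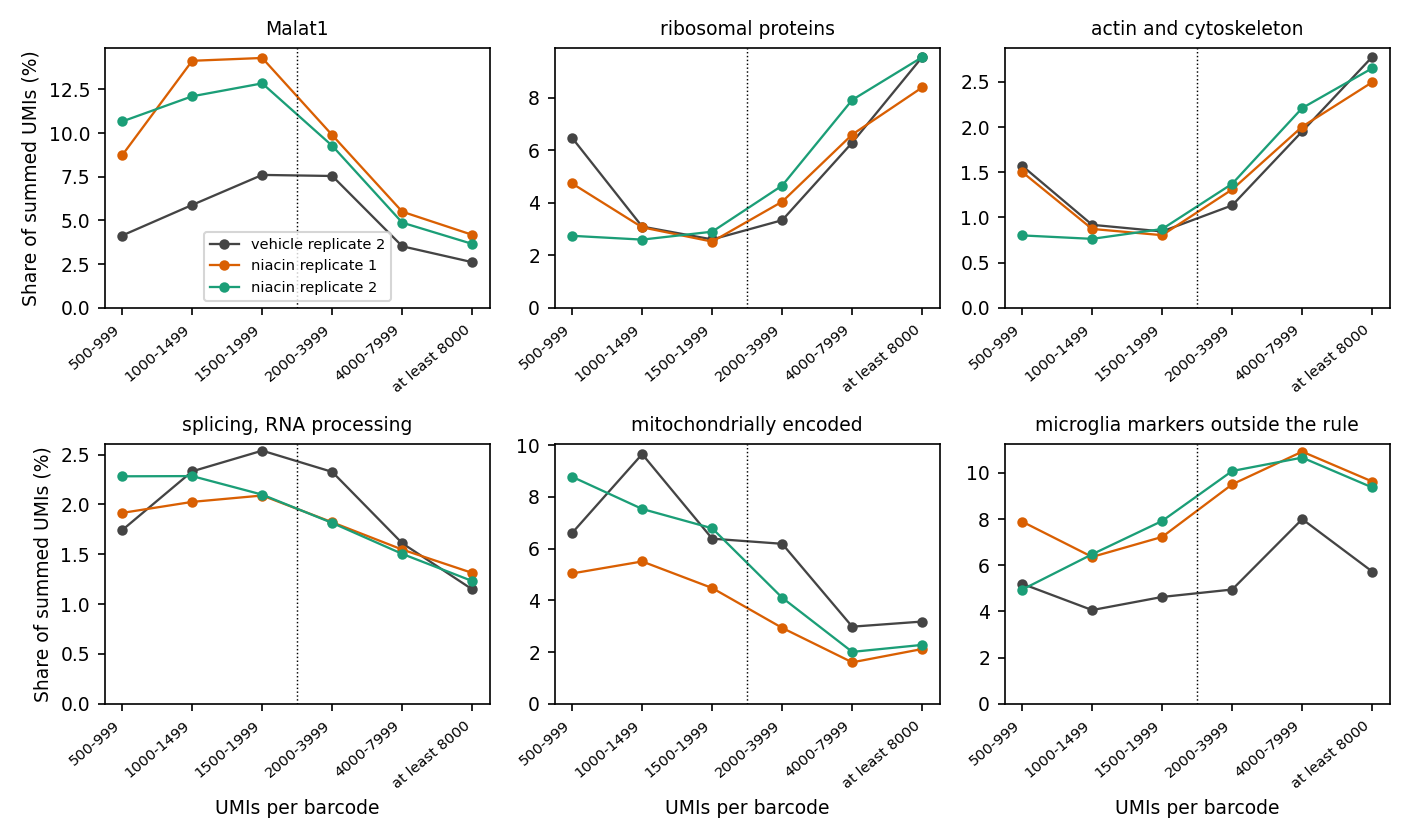
Share of summed UMIs (percent) of 6 measures in bins of UMIs per barcode, 1 line per library, with a dotted line at the limit of 2000 UMIs. Malat1 peaks just below the limit, ribosomal protein and actin genes are lowest in a bin between 1000 and 2000 UMIs, and mitochondrially encoded genes fall across it in each library.

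To see whether these differences belonged to microglia, T cell-like barcodes were divided at the same limit (61, 51 and 25 shallow, 151, 82 and 116 deep) and the difference of differences was tested in 1 edgeR fit. The summed shares of ribosomal protein genes and Malat1 moved the same way in both cell types. Ribosomal protein genes took 4.05%, 3.65% and 3.58% of UMIs in shallow and 20.3%, 29.8% and 30.6% in deep T cell-like barcodes. Malat1 took 8.42%, 14.4% and 13.4% in shallow ones against 2.68%, 3.21% and 3.02% in deep ones. Of 8770 genes 155 (1.77%) had a more positive difference in microglia and 55 (0.627%) a more negative one. With library totals in place of TMM factors the counts were 91 and 148, and the median over all genes moved from 0.08 to -0.30.

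The fall of ribosomal protein genes was smaller in microglia. Their median log2 fold change was -3.24 in T cell-like barcodes and -1.43 in microglia in this fit, and the difference was past the threshold for 79 of 83 genes, all in this direction. With library totals it was 69 of 83, and without niacin replicate 1 it was 31 of 83, with a median difference of 1.74 against 1.87 with all libraries. Translation factors did the same in 6 of 15 cases and actin and cytoskeleton genes in 5 of 18, which became 0 and 1 without niacin replicate 1 at median differences of 1.21 and 0.87, against 1.18 and 1.04 with all libraries. For actin genes it was also 1 without niacin replicate 2 and with library totals. On simulated counts this fit recovered 2% of 2-fold and 21% of 4-fold differences, so a difference that did not pass says little. For splicing genes it passed in 0 of 25 cases (edgeR), with a median difference of -0.0017 and medians of 0.60 in T cell-like barcodes and 0.54 in microglia. Some other lists had opposite signs in the 2 cell types, as mean log2 ratios of summed shares over 3 libraries. Erythroid markers stood at -1.86 in microglia and 1.72 in T cell-like barcodes and neutrophil markers at -1.21 and 2.09. The difference passed for 4 of 4 and 4 of 7 genes, all more negative in microglia. The T cell-like ratios of these lists rest on low levels. Erythroid markers took a mean of 0.137% of UMIs in shallow and 0.032% in deep T cell-like barcodes, and neutrophil markers 0.079% and 0.017%. In vehicle replicate 2, however, the neutrophil ratio was positive in both cell types, at 0.81 and 2.02. Numbered gene models stood at 0.89 and -0.11 as summed shares, although the median log2 fold changes of their genes were 0.76 and 0.81. Their T cell-like ratio was negative in vehicle replicate 2 alone, at -0.76 against 0.30 and 0.11 in niacin replicates 1 and 2. Lysosome genes stood at -0.52 in microglia and 0.58 in T cell-like barcodes, microglia markers outside the rule at -0.52 and 0.60 and MHC class I genes at -0.52 and 0.46. Lysosome genes took a mean of only 0.459% of UMIs in shallow and 0.308% in deep T cell-like barcodes, against 4.69% and 6.76% in microglia. For microglia markers outside the rule the means were 0.333% and 0.218%, against 6.13% and 8.87%. The difference passed for 2 of 22 lysosome genes, 5 of 28 microglia markers and 0 of 12 MHC class I genes (edgeR), all those that passed being more negative in microglia. With library totals it passed for 3, 7 and 4 genes of these lists, all more negative. The median difference of MHC class I genes was then -0.75, against -0.32 with TMM factors. Without niacin replicate 1 it passed for none of these lysosome genes and microglia markers, with median differences of -0.63 and -0.20. Over all genes tested 933 had an unadjusted p under 0.05.

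**Figure D5:**
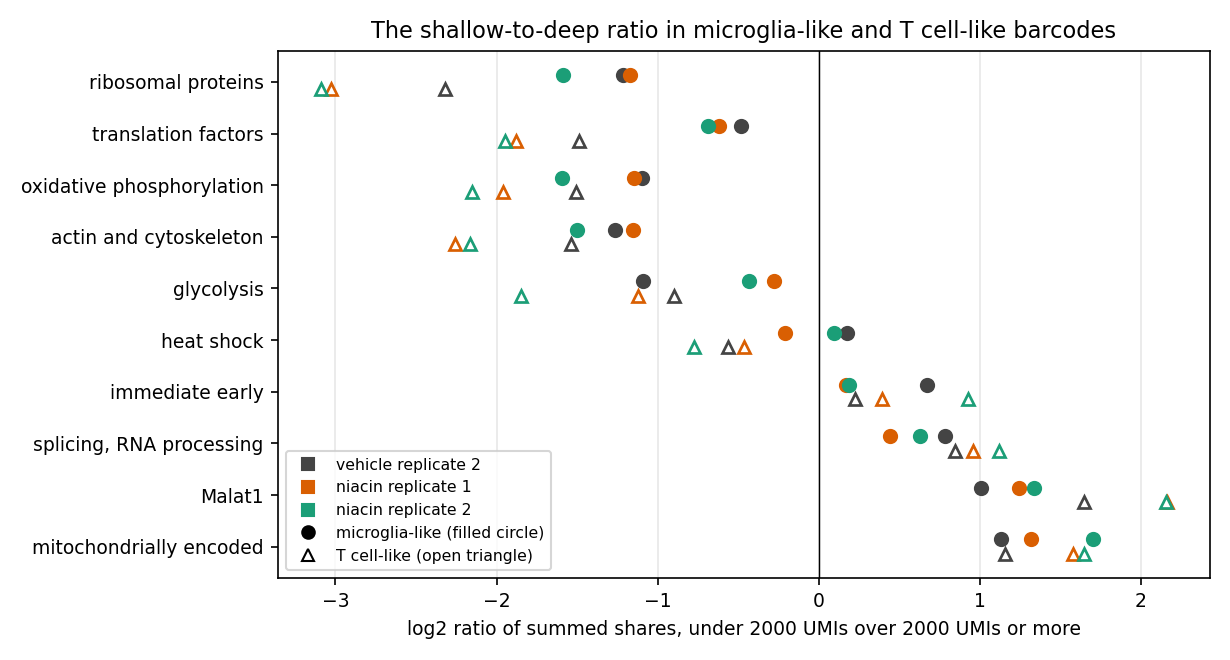
log2 ratio of the summed share under 2000 UMIs to that at 2000 UMIs or more, per library, filled circles for microglia-like and open triangles for T cell-like barcodes. Ribosomal protein genes lie further to the left in T cell-like barcodes of all 3 libraries, and Malat1, splicing and mitochondrially encoded genes lie to the right in both.

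Vehicle and niacin members are set side by side without a test, since vehicle is 1 library. The Prkcd level of 604 CPM in vehicle members had an exact Poisson 95% interval from 495 to 730. The niacin members' levels of 329 and 343 CPM had intervals from 262 to 408 and from 288 to 405, and vehicle was also the highest of the deep sums. The Malat1 share was 6.37% in vehicle members and 13.4% and 12.1% in niacin members. Numbered gene models, led by Gm42418, took 3.22%, 2.14% and 3.20% of UMIs. MHC class II genes took 0.249%, 0.082% and 0.067%, and interferon-response genes 0.183%, 0.029% and 0.041%, beside monocyte markers at 0.047%, 0.008% and 0.007%. Library and treatment cannot be told apart in these values.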

How the data were processed

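Live cells sorted from mouse brain tumor tissue were captured with the 10x 3′ kit in 1 vehicle and 2 niacin libraries. The authors made the deposited UMI count matrices with Cell Ranger 3.1, which aligns with STAR, on mm10, and the counts are not normalized. Depth was 8301228, 9373321 and 10359526 UMIs in 2270, 2145 and 2532 barcodes. Counts of selected barcodes were summed per library and depth class, and a gene's share is its UMIs over the sum. Genes were tested with edgeR 4.0.16 in R 4.3.3 (quasi-likelihood test with TMM factors and a term for library, low genes removed by filterByExpr, p-values adjusted by Benjamini-Hochberg, threshold 0.05), after a test on simulated data. DESeq2 1.42.0 and other filters, limits and left-out libraries were alternatives. Exact intervals came from scipy 1.17.1 under Python 3.11.15, with numpy 2.4.6 and pandas 2.3.3. No doublet caller was run. P-values rest on the spread between these 3 library pairs, which come from pooled mice. The spread of each gene was moderated by that of the other genes, so a p-value does not measure a gene's own spread alone.

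Genes were named by rule: the 12 largest changes each way past the threshold, in the same direction in all libraries and at a mean of at least 50 CPM, up to 4 genes of the highest level per list, and Prkcd, Cybb and Itgal. Further genes named within a list were picked after their values were seen. The members and lists were chosen with earlier results of these data known. The 16 cell type lists and 22 gene lists were all counted, and those of B, dendritic, natural killer, mast, endothelial and T cells, astrocytes and oligodendrocytes gave 1 call in all, Igkc among B cell genes. Vehicle and niacin were not tested against each other. Results for 2 genes are not reported here.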

Additional observations from a re-analysis of the deposited data

Results flagged for a closer look

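In 8 of 109 genes and 3 of 42 lists, the log2 ratio of the level in shallow to that in deep barcodes had one sign in the vehicle library and the other in both niacin libraries. These differences were not tested, since vehicle is 1 library. The values below are in the order vehicle replicate 2, niacin replicate 1 and niacin replicate 2. Higher in shallow barcodes of the vehicle library alone were Ctsd (0.14, -0.032 and -0.16), Maf (0.16, -0.21 and -0.034), Neat1 (0.37, -0.64 and -0.017) and S100a8 (1.08, -1.73 and -3.76). The astrocyte list (0.65, -0.060 and -0.0031) and the neutrophil list (0.81, -1.39 and -3.07) did the same. Lower in shallow barcodes of the vehicle library alone were Bcl2l11 (-0.35, 0.66 and 0.27), H2-K1 (-0.31, 0.28 and 0.091), P2rx4 (-0.15, 0.088 and 0.84), P2ry6 (-0.40, 0.38 and 0.12) and the purinergic list (-0.010, 0.44 and 0.46).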

How the results depend on the processing

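The counts of genes higher and lower moved both ways with the settings. They were 1300 and 2021 with at least 1 marker, 1279 and 1768 with a UMI limit of 3000, 1118 and 1502 with RLE factors, 509 and 714 with DESeq2, 348 and 414 with at least 20 counts in every sum, 351 and 645 without the library block, 628 and 1686 with no filter on low counts, 314 and 901 with a UMI limit of 1500 (438 members), 18 and 284 with members under 1000 UMIs (209), 214 and 330 without barcodes with markers of another cell type (247 members), 253 and 419 with every barcode thinned to 500 UMIs, and 574 and 905 with markers read after thinning. The setting without markers of another cell type left 195 of 1732 deep barcodes, 25 of them in niacin replicate 1. Shared barcodes kept gave 704 and 1010 (1055 members), and a deep group under 8000 UMIs gave 707 and 1012. Leaving out 1 library gave 372 to 899 higher and 771 to 1284 lower, lowest without niacin replicate 2. Against T cells, library totals gave 91 more positive and 148 more negative, and leaving out 1 library gave 43 to 179 and 16 to 28, lowest without niacin replicate 1. The median over all genes moved to -0.39 with no filter and with members under 1000 UMIs. The cause was not tested. At most 15 genes called in the fit reported here were called in the opposite direction in any setting.

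Of 2605 values for 111 genes, 2204 kept their direction and side of the threshold and 38 changed sign. With shared barcodes removed the log2 fold changes were 1.89 for Camp, 0.50 for Hbb-bt, 0.62 for Chil3, 0.32 for Hbb-bs and 0.15 for S100a8. With a deep group under 8000 UMIs they were 1.80 for Camp, 0.73 for Plac8, 0.40 for Ly6c2, 0.58 for Hbb-bt, 2.33 for Chil3, 0.20 for Hbb-bs and 0.012 for S100a8. With markers read after thinning they were 2.11 for Camp, 0.55 for Plac8, 1.52 for Ly6c2, 1.07 for Hbb-bt, 0.74 for S100a11, 1.13 for Chil3, 0.47 for Cybb, 0.78 for Itgal, 1.24 for Hbb-bs and 1.76 for S100a8. Without monocyte or macrophage markers they were 1.93 for Camp, 1.19 for Plac8, 1.38 for Ly6c2, 0.52 for S100a11, 2.98 for Chil3, 0.24 for Cybb, 0.27 for Itgal and 1.94 for S100a8. Without any other cell type they were 0.97 for Ttr, 1.69 for Hbb-bs and 2.32 for S100a8. Under 1000 UMIs they were -0.013 for Mef2a, -0.29 for Mef2c, -0.23 for Jun and -0.21 for Junb, and the log2 fold change of Rbm39 was -0.046, all above the median of all genes in that setting. The settings with markers read after thinning and without monocyte or macrophage markers were chosen after seeing the data. The settings without monocyte or macrophage markers and without any other cell type read those markers over all UMIs. Depth therefore affected which barcodes they left. No paired analysis was possible because vehicle and niacin share fewer than 2 replicate numbers, and this concerns only vehicle against niacin, since shallow and deep sums were compared within libraries. Depth limits genes with few UMIs, since members held 177177 to 399826 UMIs per library.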
